A study of Mus musculus with 30 samples.

Results

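The Nr4a genes encode the 3 orphan nuclear receptors of the NR4A subfamily, Nr4a1 (Nur77), Nr4a2 (Nurr1) and Nr4a3 (Nor1). All 3 were taken by symbol from the deposited tables and both single-cell matrices, 3 genes out of 56691 in the table of cardiac fibroblasts (CFs) by age, 55401 in the LacZ and MGT table, 55359 in the overexpression table, 49492 in the knockdown table and 32285 in each single-cell matrix. The study asks why fibroblasts from older hearts are hard to turn into induced cardiomyocyte-like cells, and it manipulates Nr4a3. Every library came from wild-type (WT) mouse primary cardiac fibroblasts, with 2 libraries in each of 14 bulk groups. Fibroblasts cultured for 3 days came from neonatal pups (postnatal days 1 to 3) and from mice of 3, 12 and 24 months. Neonatal, 3-month and 18-month fibroblasts were collected at day 3 with LacZ, the control transgene, or with MGT, the reprogramming factors Mef2c, Gata4 and Tbx5. Neonatal fibroblasts carried an Nr4a3 overexpression construct (OENr4a3) or its control (OECtrl) and were collected at day 10 by the sample labels. Fibroblasts of 3-month mice carried MGT with a short hairpin against Nr4a3 (MGT+shNr4a3) or a non-targeting one (MGT+shNT) and were collected at day 7. MGT cells of neonatal and of 24-month mice gave 1 single-cell library each. The labels do not say that the 2 libraries of a group came from separate animals or cultures, so the p-values below measure only the spread between these libraries, which may be technical.

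NR4A receptors bind DNA as monomers at the NBRE element or as dimers, and Nr4a1 and Nr4a2 can also pair with retinoid X receptors. Their ligand pocket is filled by bulky side chains, so their activity is set largely by how much receptor a cell makes. The genes are immediate early genes, switched on within minutes to hours by growth factors, cAMP, stretch and stress, largely through CREB bound at cAMP response elements, and they are known in heart and vessel cells for roles in growth, metabolism and fibrosis.

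The start-site regions of the 3 genes are shown because all of them carry a cluster of cAMP response element half-sites. The RefSeq windows (build GRCm38.p6) were searched on both strands for the half-site TGACG, read as CGTCA on the other strand, in the 250 bases before the start. The sequences are given 5′ to 3′ on the strand of the gene, with the half-sites in capitals.
Nr4a1: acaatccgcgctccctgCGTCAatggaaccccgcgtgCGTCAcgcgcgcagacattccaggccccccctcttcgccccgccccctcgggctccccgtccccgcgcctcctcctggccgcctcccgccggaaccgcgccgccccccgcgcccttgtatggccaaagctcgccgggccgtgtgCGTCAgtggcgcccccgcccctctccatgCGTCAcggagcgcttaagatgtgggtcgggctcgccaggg
Nr4a2: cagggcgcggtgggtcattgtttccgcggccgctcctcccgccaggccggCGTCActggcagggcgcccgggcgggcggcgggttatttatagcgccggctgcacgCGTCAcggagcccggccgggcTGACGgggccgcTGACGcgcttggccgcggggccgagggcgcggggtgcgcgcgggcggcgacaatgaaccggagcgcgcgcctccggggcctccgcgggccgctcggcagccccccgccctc
Nr4a3: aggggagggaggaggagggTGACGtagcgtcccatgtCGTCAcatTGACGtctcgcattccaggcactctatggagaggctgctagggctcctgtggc
The Nr4a1 sequence is chr15:101266596-101266845 on the plus strand, within an intron of 1 annotated transcript, and holds 4 half-sites. The Nr4a2 sequence is chr2:57124004-57124253 on the minus strand, outside annotated transcripts, and also holds 4. Of the Nr4a3 window only the distal 98 bases, chr4:48045055-48045152 on the plus strand, are printed, because the other 152 bases lie in an annotated exon. The printed Nr4a3 stretch holds 3 half-sites, and the fourth of the window lies in that exon, 147 to 143 bases before the RefSeq start. At least 1 half-site was present in 17.8% of 32841 mouse promoters of the same length, and at least 4 in 0.137%. Among the 6581 promoters with at least the GC content of the least GC-rich Nr4a promoter these shares were 28% and 0.38%. Of 16 promoters, which belong to 12 other immediate early genes, 10 held a half-site and 0 held 4. None of the Nr4a windows held a full cAMP response element, TGACGTCA, which contains both forms of the half-site and was present in 1.55% of promoters, or the NR4A element AAAGGTCA, present in 1.34%, or a CArG box, present in 1.47%. These matches describe the letters in the windows only. By the GRCm38 annotation Nr4a1 (ENSMUSG00000023034) spans chr15:101254269-101274795, Nr4a2 (ENSMUSG00000026826) chr2:57106830-57124003 and Nr4a3 (ENSMUSG00000028341) chr4:48045153-48086447, and none of them overlaps another gene.

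The bulk libraries held 17.28M to 22.31M counts in the fibroblast age table, 14.49M to 18.8M in the LacZ and MGT table, 14.28M to 18.44M in the overexpression table and 39.75M to 43.45M in the knockdown table. All 7 fibroblast markers were present in every group, with sums of 17764 to 29177 CPM (read counts scaled to a common library size, adjusted by TMM) in the age table. Cardiomyocyte markers summed to 1012.72 to 1091.59 CPM in neonatal fibroblasts and 10.2 to 34.1 CPM in those of older mice. Mef2c and Tbx5 were higher with MGT than with LacZ at each age, with group means of 165 to 207 against 9.21 to 17.4 CPM for Mef2c and 243 to 283 against 0.604 to 2.21 CPM for Tbx5. In bulk samples, fewer cells of a type and less RNA per cell cannot be told apart.

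Nr4a1 was the most abundant of the 3 genes, per length, in all libraries in which Nr4a3 was not manipulated. Levels of different genes were compared as CPM per kilobase of the deposited exon length, which is 4059 bases for Nr4a2, 5987 for Nr4a3 and 3509 for Nr4a1, or 2474 for Nr4a1 in the knockdown table. In those 24 libraries Nr4a1 made up 84.8% to 93.9% of the summed level of the family, Nr4a2 2.5% to 9% and Nr4a3 0.935% to 10.7%. The order of the 2 lesser genes differed between groups. Nr4a2 exceeded Nr4a3 per kilobase in both libraries of neonatal, 3-month and 24-month fibroblasts and of every LacZ group, whereas Nr4a3 exceeded Nr4a2 in both libraries of 3-month and 18-month MGT cells and of MGT+shNT cells. In 12-month fibroblasts and neonatal MGT cells the 2 libraries gave opposite orders, and in OECtrl cells Nr4a3 was higher in 1 library and equal to Nr4a2 in the other.

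**Figure D1:**
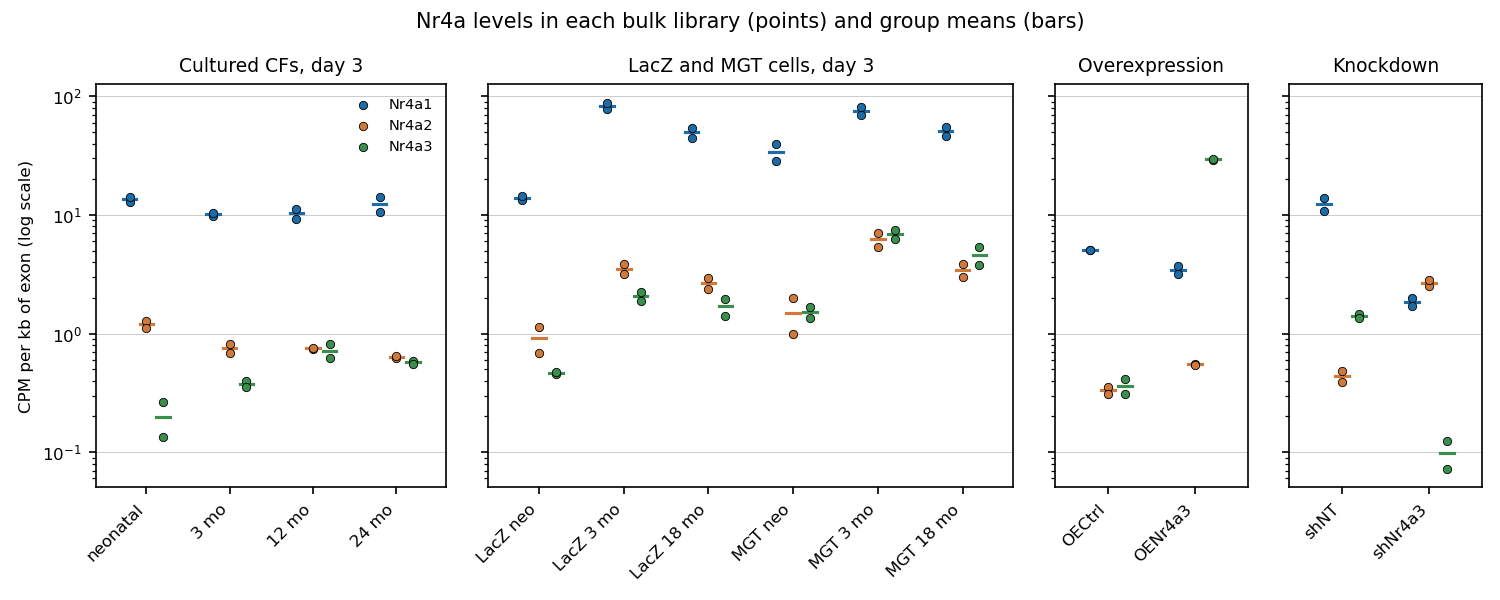
Levels of Nr4a1, Nr4a2 and Nr4a3 in CPM per kilobase of exon on a log axis, with 1 point for each of the 28 bulk libraries in 4 panels, 1 per deposited table. Nr4a1 lies above both other genes except where Nr4a3 was overexpressed (29.3 and 29.7 for Nr4a3) and where it was knocked down. Overexpressed Nr4a3 was scaled by the endogenous exon length, not by that of the construct.

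**Figure D2:**
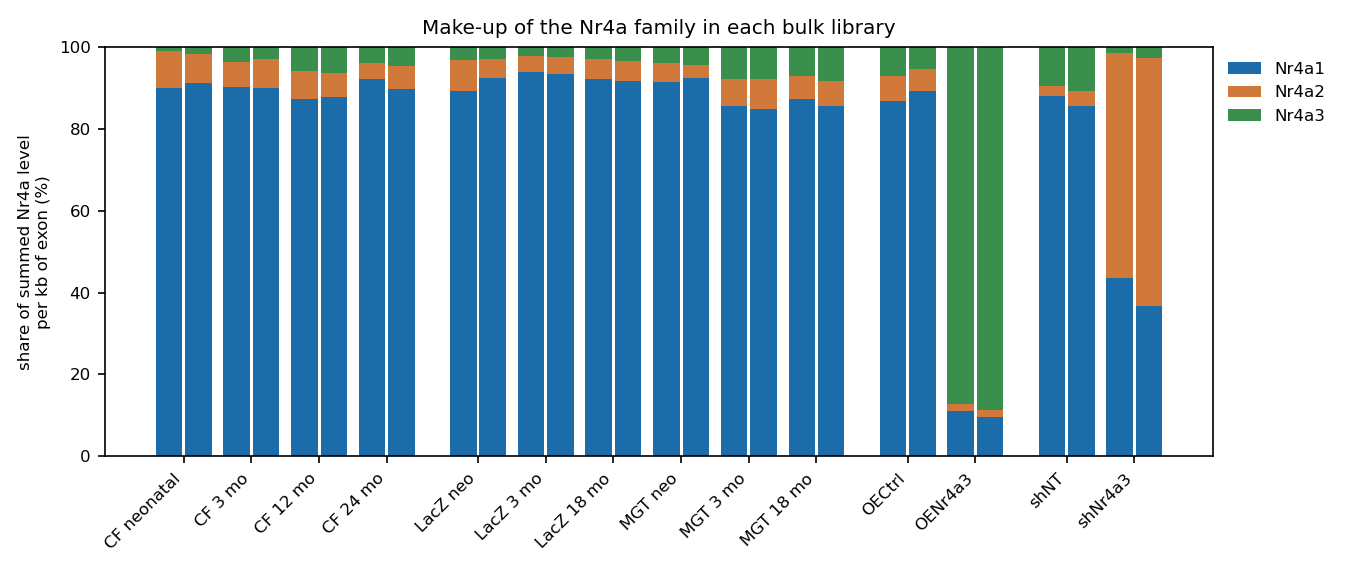
Share of each gene, in percent, of the summed CPM per kilobase of the family in each of the 28 bulk libraries. Nr4a3 reached 87.3% and 88.8% in the OENr4a3 libraries, and Nr4a2 54.8% and 60.6% in the MGT+shNr4a3 libraries. The OENr4a3 shares use the endogenous exon length of Nr4a3, not the length of the construct.

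In cultured fibroblasts Nr4a3, the member the study manipulated, was higher at every older age than in neonatal cells, and Nr4a2 was lower. Nr4a3 was measured at 0.797 and 1.59 CPM in neonatal cells, 2.38 and 2.11 at 3 months, 3.72 and 4.87 at 12 months, and 3.52 and 3.32 at 24 months. No library of an older age overlapped the neonatal pair, which rested on 17 and 28 reads. Against neonatal cells the log2 difference was 0.95 ± 0.31 (SE) at 3 months (edgeR quasi-likelihood, adjusted p = 0.00868), 1.89 ± 0.29 at 12 months (adjusted p = 5.63e-07) and 1.55 ± 0.30 at 24 months (adjusted p = 1.9e-05). These comparisons share the neonatal libraries. Between the older ages Nr4a3 rose from 3 to 12 months by 0.94 ± 0.24 (adjusted p = 0.00277), while 24 against 3 months (0.60 ± 0.25, adjusted p = 0.0859) and 24 against 12 months (-0.34 ± 0.22, adjusted p = 0.34) did not pass. All 3 members passed at 3 months, beside 52.5% of all 16466 genes tested, and at 12 months, beside 55.2%, and 2 of 3 passed at 24 months, beside 54.5%. The background was 28.5% for 12 against 3 months, 18.3% for 24 against 3 months and 18.9% for 24 against 12 months. The 3-month call was lost without neonatal replicate 1 (0.47, adjusted p = 0.285) or 3-month replicate 1 (adjusted p = 0.0552), and the 12 against 3 months call without 12-month replicate 2 (0.73, adjusted p = 0.0916). With DESeq2 both calls missed the threshold (adjusted p = 0.069 and 0.0503).

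Nr4a2 was measured at 5.2 and 4.49 CPM in neonatal fibroblasts, 2.79 and 3.3 at 3 months, 3.03 and 3.08 at 12 months, and 2.53 and 2.61 at 24 months. The neonatal pair lay above all 6 libraries of older mice. Nr4a2 fell by 0.68 ± 0.20 on the log2 scale at 3 months (edgeR adjusted p = 0.00481), by 0.67 ± 0.21 at 12 months (adjusted p = 0.00615) and by 0.92 ± 0.21 at 24 months (adjusted p = 0.000304). No pair of older ages differed past the threshold for Nr4a2, with adjusted p of 0.503 to 0.982. The 3-month call was lost without neonatal replicate 1 (adjusted p = 0.066) or 3-month replicate 1 (adjusted p = 0.0641), and the 12-month call without neonatal replicate 1 (adjusted p = 0.0729). With DESeq2 both missed the threshold (adjusted p = 0.0692 and 0.0753).

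Against neonatal cells, Nr4a1 had the smallest differences of the 3 genes at each age. It was measured at 45 and 49.8 CPM in neonatal fibroblasts, 34.6 and 36.6 at 3 months, 32.7 and 39.6 at 12 months, and 49.4 and 36.8 at 24 months. The 24-month libraries spanned most of the range of the others. Nr4a1 was lower at 3 months (-0.41 ± 0.14, edgeR adjusted p = 0.0366) and at 12 months (-0.38 ± 0.14, adjusted p = 0.048), and the 24-month difference did not pass (-0.13 ± 0.14, adjusted p = 0.458). The 3-month call was lost when any 1 of its 4 libraries was left out, with adjusted p of 0.0742 to 0.21. The 12-month call was lost without neonatal replicate 1 (adjusted p = 0.0872), neonatal replicate 2 (0.204) or 12-month replicate 1 (0.186). With the replicate number as a block the adjusted p was 0.0723 at 3 and 0.0876 at 12 months. At 24 months the difference was called without 24-month replicate 1 (-0.38, adjusted p = 0.000987) and took the opposite sign without replicate 2 (0.06, adjusted p = 0.595). Without 24-month replicate 2, Nr4a1 was also higher at 24 than at 3 months (0.47, adjusted p = 0.000191) and than at 12 months (0.45, adjusted p = 0.000523). With no filter on low counts both differences were called with all libraries (adjusted p = 0.00188 and 0.00468). Endothelial markers moved with age as well, summing to 918 to 928 CPM in neonatal libraries and 66.6 to 161 CPM in the others, and epicardial markers to 153 to 155 against 1.19 to 4.18 CPM; macrophage markers summed to 283 to 286 against 131 to 230 CPM. Smooth muscle and pericyte markers summed to 508 to 527 against 97 to 175 CPM. The part of these markers in the age differences of the 3 genes was not tested.

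Counts of list members called stand beside the shares of all genes called given above. Of 16 other immediate early genes tested, 8 were higher and 7 lower at 24 months than in neonatal fibroblasts (background 54.5%), with a median log2 difference of 0.06 beside -0.01 over all genes. At 12 months 3 were higher and 10 lower (background 55.2%), with a median of -0.33 beside 0.03. Between 12 and 24 months 13 were higher and 1 lower (background 18.9%), with a median of 0.37 beside 0.00. Egr1, an early growth response factor, was measured at 664 and 683 CPM in neonatal, 578 and 597 in 3-month, 386 and 396 in 12-month and 519 and 495 in 24-month fibroblasts, and so was lowest at 12 months. Atf3, a stress-induced bZIP factor, was measured at 20.9 and 21.4 CPM in neonatal cells and at 4.13 to 5.98 CPM in all 6 libraries of older mice. Of 7 CREB target genes tested, 24-month cells had 3 higher and 2 lower than neonatal ones.

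MGT raised Nr4a3 at all 3 ages. Nr4a3 was measured at 2.73 and 2.83 CPM with LacZ and 10.1 and 8.17 with MGT in neonatal cells, at 11.2 and 13.5 against 37.5 and 44.6 at 3 months, and at 8.45 and 11.8 against 22.6 and 32 at 18 months. The MGT and LacZ libraries did not overlap at any age. The log2 difference was 1.72 ± 0.24 in neonatal cells (3.29-fold, edgeR adjusted p = 2.15e-05), 1.72 ± 0.17 at 3 months (3.31-fold, adjusted p = 1.25e-07) and 1.43 ± 0.18 at 18 months (2.7-fold, adjusted p = 5.41e-06). These calls held with any 1 library left out. The difference between the neonatal and the 3-month response was 0.01 ± 0.30 on the log2 scale, with a 95% interval of -0.61 to 0.63 (adjusted p = 0.999). The 18-month response minus the neonatal one was -0.28 ± 0.30 (adjusted p = 0.744). In neonatal cells 2 of the 3 members passed, beside 7.51% of the 16368 genes tested, and 1 of 3 passed at 3 months (background 17.4%) and at 18 months (16.6%).

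Nr4a1 rose with MGT in neonatal cells, and its response there differed from that at both older ages. It was measured at 46.5 and 50.3 CPM with LacZ and 138 and 99.9 with MGT in neonatal cells, at 273 and 310 against 244 and 285 at 3 months, and at 157 and 191 against 162 and 194 at 18 months. Neonatal MGT libraries lay above both LacZ libraries, whereas the 2 treatments overlapped at 3 and 18 months. The log2 difference was 1.30 ± 0.17 in neonatal cells (2.46-fold, edgeR adjusted p = 0.000394), -0.14 ± 0.16 at 3 months (95% interval -0.49 to 0.21, adjusted p = 0.622) and 0.03 ± 0.16 at 18 months (-0.32 to 0.38, adjusted p = 0.93). Tested as an interaction, the response was smaller at 3 months than in neonatal cells by a log2 difference of -1.44 ± 0.23 (adjusted p = 0.00433, background 3.7%). At 18 months it was smaller by -1.27 ± 0.23 (adjusted p = 0.0131, background 2.82%), and 18 against 3 months did not differ past the threshold (0.17, adjusted p = 0.843, background 2.34%). The 3-month interaction was lost without LacZ 3-month replicate 2 (-1.35, adjusted p = 0.116), and the 18-month one without LacZ neonatal replicate 1 (-1.21, adjusted p = 0.0604) or MGT 18-month replicate 1 (-1.13, adjusted p = 0.0656). Fitted on the compared groups alone, the neonatal MGT difference (adjusted p = 0.07) and the 18-month interaction (adjusted p = 0.0691) missed the threshold. The 2 LacZ 3-month libraries differed from each other by more than most pairs, with a chi-square per degree of freedom of 18.9, beside 2.29 to 6.66 for all other groups except OECtrl (15.5), MGT+shNT (12.2) and MGT+shNr4a3 (24.2).

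Nr4a2 did not pass between MGT and LacZ at any age in the edgeR test, but other settings called it in neonatal and 3-month cells. It was measured at 4.61 and 2.77 CPM with LacZ and 8.03 and 3.99 with MGT in neonatal cells, at 12.9 and 15.8 against 21.9 and 28.7 at 3 months, and at 9.55 and 12 against 12.2 and 15.8 at 18 months. The 3-month and 18-month MGT libraries all exceeded their LacZ counterparts, and the neonatal libraries overlapped. The log2 differences were 0.72 ± 0.36 (edgeR adjusted p = 0.38), 0.81 ± 0.27 (adjusted p = 0.0671) and 0.38 ± 0.29 (adjusted p = 0.451). Without MGT neonatal replicate 2 the neonatal difference passed (1.13, adjusted p = 0.0186), as it did in edgeR with no filter on low counts (0.722, adjusted p = 0.0118). The 3-month difference passed with DESeq2 (adjusted p = 0.0155), in edgeR with no filter (adjusted p = 1.92e-06) and in edgeR fitted on the compared groups alone (adjusted p = 0.00715). No difference in its response between ages passed (edgeR adjusted p of 0.75 to 0.968).

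All 3 members were several-fold higher in LacZ cells of 3 and 18 months than in neonatal LacZ cells, with libraries that did not overlap. Nr4a1 was higher 6.02-fold at 3 months (2.59 ± 0.16, edgeR adjusted p = 2.97e-07) and 3.6-fold at 18 months (1.85 ± 0.16, adjusted p = 4.82e-06). Nr4a2 was higher 3.91-fold (adjusted p = 0.000875) and 2.92-fold (adjusted p = 0.00428). Nr4a3 was higher 4.45-fold (adjusted p = 1.26e-07) and 3.63-fold (adjusted p = 1.4e-06). Each held with any 1 library left out, beside backgrounds of 30.9% and 35% of genes. Between 3 and 18 months Nr4a1 fell by 0.74 ± 0.16 (adjusted p = 0.00553, background 23%), a call lost without LacZ 3-month replicate 2 (-0.64, adjusted p = 0.132), while Nr4a2 (-0.42, adjusted p = 0.357) and Nr4a3 (-0.30, adjusted p = 0.296) did not pass. Neonatal LacZ cells also held more epicardial marker RNA (654 to 713 CPM in sum, against 8.63 to 14.9 at older ages), more endothelial (303 to 335 against 7.35 to 16.1) and more cardiomyocyte marker RNA (280 to 329 against 3.79 to 6.25). They held more smooth muscle and pericyte marker RNA (230 to 233 against 22.3 to 42.9) and less macrophage marker RNA (206 to 259 against 317 to 358). The part of these markers in the result was not tested. In the cultured fibroblasts described above, Nr4a1 (-0.41) and Nr4a2 (-0.68) were instead lower at 3 months than in neonatal cells, while Nr4a3 (0.95) was higher. Why the 2 sets of cells differ was not tested.

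With MGT, ages followed the same order for each gene, highest at 3 months and lowest in neonatal cells. Nr4a3 was higher 4.48-fold at 3 months (2.16 ± 0.18, edgeR adjusted p = 3.67e-09) and 2.98-fold at 18 months (1.58 ± 0.18, adjusted p = 4.9e-07) than in neonatal MGT cells. Nr4a2 was higher 4.17-fold (adjusted p = 0.000377) and 2.31-fold (adjusted p = 0.0129), the latter lost without MGT 18-month replicate 2 (0.996, adjusted p = 0.0896). Nr4a1 was higher 2.22-fold (adjusted p = 0.000244) and 1.49-fold (adjusted p = 0.018), the latter lost without MGT neonatal replicate 2 (0.35, adjusted p = 0.0728) or MGT 18-month replicate 2 (0.43, adjusted p = 0.151). Fitted on the compared groups alone, the 3-month Nr4a1 difference missed the threshold (adjusted p = 0.0804). The background was 26.1% at 3 and 30.6% at 18 months. From 3 to 18 months Nr4a1 fell by 0.57 ± 0.16 (adjusted p = 0.0296) and Nr4a3 by 0.59 ± 0.16 (adjusted p = 0.0137, background 17.4%), and Nr4a2 did not pass (-0.85 ± 0.27, adjusted p = 0.0571). That Nr4a2 difference was called with DESeq2 (adjusted p = 0.0122), with no filter on low counts (8.19e-07) and with only the compared groups fitted (9.65e-07). The Nr4a1 call was lost without MGT 3-month replicate 2 (adjusted p = 0.158), MGT 18-month replicate 1 (0.205) or replicate 2 (0.0555), and the Nr4a3 call without MGT 3-month replicate 2 (0.174) or MGT 18-month replicate 1 (0.232). Neonatal MGT cells held more epicardial (332 to 357 CPM in sum, against 68.7 to 92.7 at older ages), endothelial (239 to 277 against 11.1 to 28.1) and cardiomyocyte marker RNA (993 to 1466 against 326 to 379). They held more smooth muscle and pericyte marker RNA (302 to 323 against 45 to 116) and less macrophage marker RNA (171.5 to 239 against 375 to 444). The part of these markers in the result was not tested. The LacZ and MGT comparisons share libraries and are not independent of each other.

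**Figure D3:**
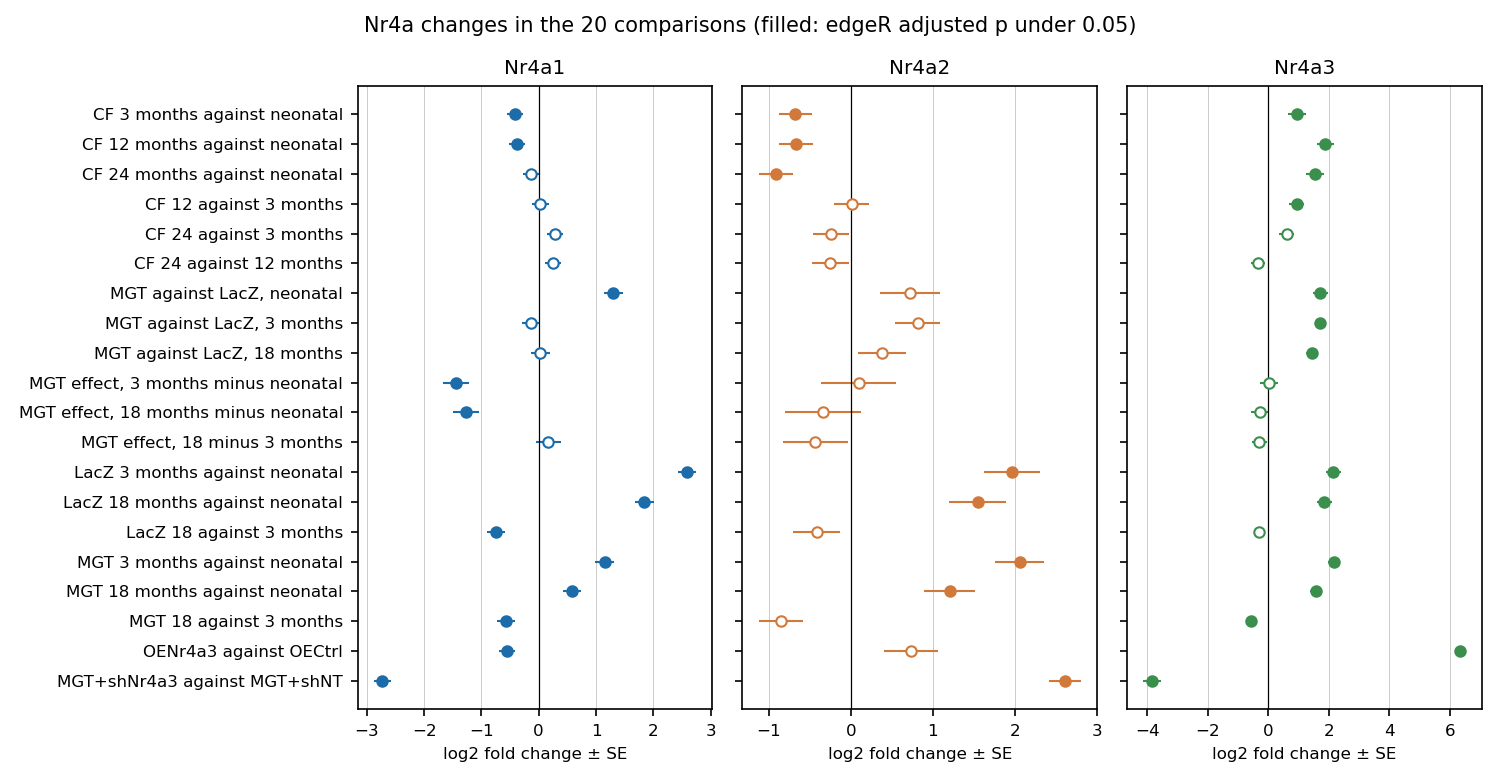
Log2 differences of Nr4a1, Nr4a2 and Nr4a3 in the 20 comparisons tested, with bars of 1 standard error; filled points passed an adjusted p of 0.05. Nr4a3 lies between 1.43 and 1.72 for MGT against LacZ at the 3 ages, and the 3 genes part widely in the overexpression and the knockdown.

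Genes known to respond to the same signals gave mixed counts with MGT, and the median log2 difference over all genes lay within 0.03 of 0 in every comparison. In neonatal cells with MGT, where 7.51% of all genes were called, 1 of 16 immediate early genes was higher and 0 were lower, with a median of 0.07, and 3 of 8 CREB targets were higher and 0 lower, with a median of 0.31. These were Sik1, a salt-inducible kinase that restrains CREB coactivators (1.36), Ptgs2, the inducible prostaglandin synthase (1.06), and Pde4b, a cAMP phosphodiesterase (0.60). At 3 months, where 17.4% were called, Ptgs2 stood at 185 and 213 CPM with LacZ and 1261 and 1324 with MGT (2.70), Sik1 at 75.8 and 65.8 against 111 and 113 CPM (0.66), and 3 of 8 CREB targets were again higher and 0 lower. Of the immediate early genes 2 were higher and 4 lower there. Among 10 genes known as NR4A targets in muscle and vessel cells, 5 were higher with MGT at 3 months and 0 lower, with a median of 0.62. They included Pdk4, a kinase that inhibits pyruvate dehydrogenase (7.73 and 8.74 CPM with LacZ against 52.1 and 60.5 with MGT, 2.77), the muscle enolase Eno3 (1.33) and Spp1, osteopontin (1.18). Several of these genes are also muscle genes, and cardiomyocyte markers summed to 351 to 379 CPM with MGT against 4.65 to 5.24 CPM with LacZ at that age. At 18 months, with 16.6% of all genes called, 1 of 16 immediate early genes was higher and 0 lower, 2 of 8 CREB targets were higher and 1 lower, and 3 of 10 NR4A target genes were higher and 0 lower. Between neonatal and 3-month LacZ cells, with 30.9% called, 10 of 16 immediate early genes were higher and 4 lower, with a median of 0.29, and 6 of 8 CREB targets were higher and 1 lower, with a median of 0.74.

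Overexpression raised Nr4a3 in neonatal fibroblasts from 2.49 and 1.85 CPM in OECtrl cells to 175 and 178 CPM in OENr4a3 cells. The log2 difference was 6.35 ± 0.18 (81.7-fold, edgeR adjusted p = 1.28e-07), the smallest p of 15029 genes. Reads of the construct and of the endogenous gene cannot be told apart. Nr4a3 then stood at 29.3 and 29.7 CPM per kilobase of the endogenous exon length of 5987 bases. The length of the construct was not taken into account, so this level is uncertain beside those of other genes.

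Nr4a1 was measured at 17.8 and 17.8 CPM in OECtrl and at 13 and 11.2 CPM in OENr4a3 cells, without overlap, and fell by 0.55 ± 0.15 (edgeR adjusted p = 0.0265). That call was lost without OENr4a3 replicate 1 (adjusted p = 0.102) or replicate 2 (0.315), and with DESeq2 (0.0728). Nr4a2 was measured at 1.45 and 1.25 CPM (21 reads each) and at 2.26 and 2.22 CPM (41 and 40 reads), and the difference of 0.73 ± 0.33 did not pass (95% interval -0.01 to 1.47, adjusted p = 0.132). The call of Nr4a3 was set by the construct itself. Of the other 2 members Nr4a1 passed and Nr4a2 did not, beside 22.7% of all genes, or 3410. That number changed widely when 1 library was left out. OENr4a3 libraries also held less epicardial (437 to 468 against 970 to 1030 CPM), macrophage (603 to 621 against 924 to 937) and cardiomyocyte marker RNA (261 to 291 against 451 to 496) in sum, and more smooth muscle and pericyte marker RNA (131 to 137 against 61.4 to 82.4), and their part in these results was not tested.

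The knockdown lowered Nr4a3 and Nr4a1 and raised Nr4a2. Nr4a3 was measured at 8.83 and 8.17 CPM in MGT+shNT cells (356 and 353 reads) and at 0.431 and 0.743 CPM in MGT+shNr4a3 cells (18 and 32 reads), a log2 difference of -3.85 ± 0.28 (14.4-fold lower, edgeR adjusted p = 8.45e-08). Nr4a1 was measured at 34.1 and 26.8 against 4.98 and 4.23 CPM, and fell by 2.73 ± 0.15 (6.62-fold, adjusted p = 1.1e-08). Nr4a2 was measured at 1.59 and 1.94 against 10.2 and 11.5 CPM, and rose by 2.61 ± 0.20 (6.12-fold, adjusted p = 1.67e-07). The libraries of the 2 groups did not overlap for any member, and all 3 calls held with any 1 library left out. Nr4a3 is the target of the hairpin, so its fall was the aim of the treatment. Of all 18045 genes tested 54.5% passed, so the calls of the other 2 members stand against a high background. By log2 difference Nr4a3 was the 158th lowest gene, Nr4a1 the 435th lowest and Nr4a2 the 430th highest. Per kilobase the share of Nr4a1 in the family was 88.1% and 85.5% in MGT+shNT and 43.7% and 36.7% in MGT+shNr4a3 cells, where Nr4a2 took 54.8% and 60.6%. The hairpin sequence is not given in the sources used here, and whether it matches Nr4a1 was not tested. Fibroblast markers summed to 4881 to 5033 CPM in MGT+shNT and 3475 to 3711 in MGT+shNr4a3 cells, cardiomyocyte markers to 9449 to 11042 and 5465 to 6236, and smooth muscle and pericyte markers to 47.5 to 51.0 and 106 to 117. Their part in these results was not tested.

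The edgeR test called 22.7% of all genes in the overexpression and 54.5% in the knockdown, and the counts of list members are to be read beside those shares. With Nr4a3 overexpressed 0 of 16 other immediate early genes were higher and 2 lower, with a median of -0.22 beside -0.01 over all genes. These were Atf3 (-0.65 ± 0.16, adjusted p = 0.0219 by edgeR) and the antiproliferative Btg2 (-0.35, adjusted p = 0.042). For the overexpression and the knockdown, CPM values below are those of the 2 control libraries against those of the 2 treated ones, and single values in parentheses are log2 differences. With Nr4a3 knocked down 6 were higher and 10 lower, with a median of -0.89 beside 0.01. The falls were led by Klf4, a Krüppel-like factor (152 and 152 against 40 and 38.1 CPM, -1.96), the AP-1 member Junb (129 and 138 against 40.1 and 32.5 CPM, -1.88), Egr1 (239 and 237 against 84 and 67.3 CPM, -1.65) and Zfp36, which destabilizes mRNAs (-1.54). Jun rose from 90.3 and 92.2 to 164 and 150 CPM (0.79), so the list did not move one way.

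Of CREB targets 2 of 7 were higher and 0 lower in the overexpression, namely the phosphodiesterase Pde4d (9.54 and 7.35 against 25.9 and 27.1 CPM, 1.66) and Sik1 (26.2 and 26.2 against 51.9 and 51.3 CPM, 0.98). In the knockdown 3 of 8 were higher and 1 lower. Crem, a CREB-family factor with repressor forms, rose from 4.42 and 4.28 to 10.6 and 11.8 CPM (1.36), the bZIP repressor Nfil3 rose by 1.26 and Ptgs2 by 1.04, while Pde4b fell by 0.98. Among 11 upstream factors, Crtc1, a CREB coactivator (0.88), and Mef2a (0.33) were higher and 0 lower in the overexpression. In the knockdown 3 were higher and 4 lower, among them Mef2a (167 and 167 against 63.9 and 66.3 CPM, -1.36), Atf1 (-0.81) and Mef2c (-0.56), which is also a transgene of these cells.

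**Figure D4:**
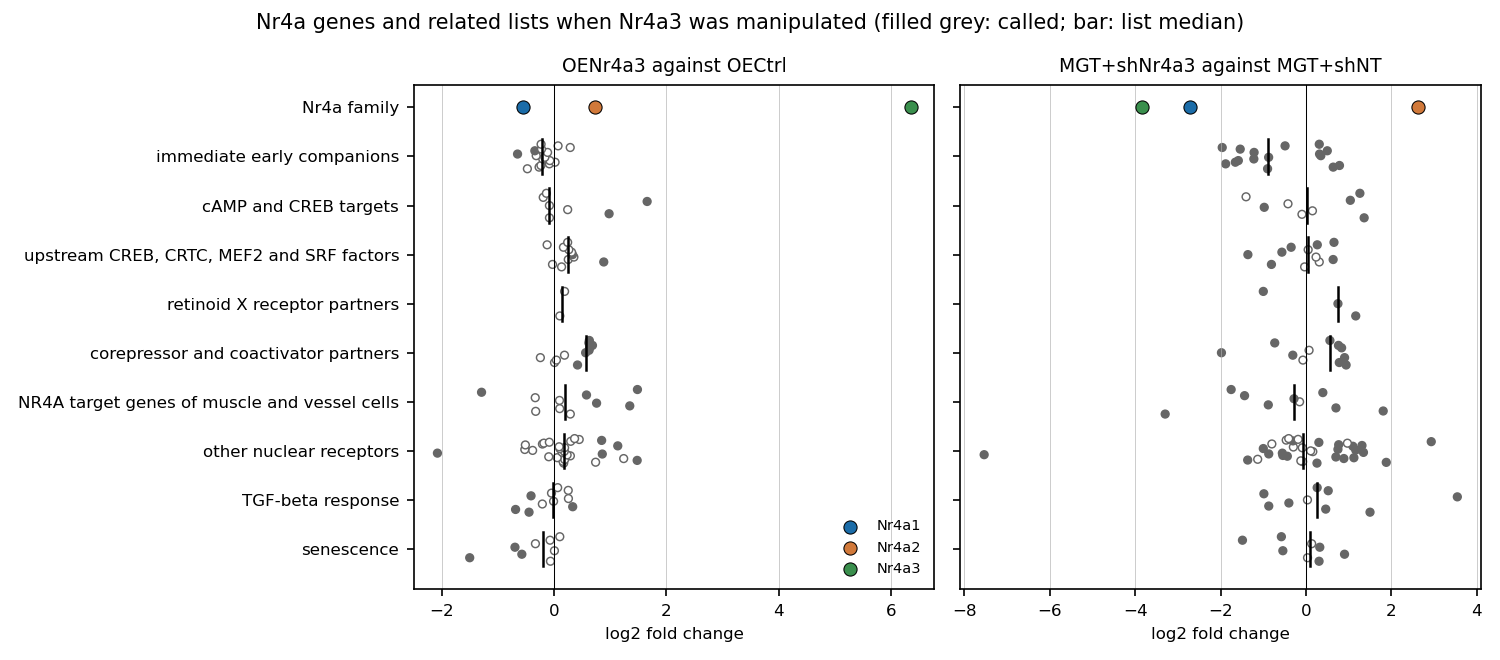
Log2 differences of the members of the gene lists in the overexpression and the knockdown, with 1 point per gene tested and a bar at the list's median. The immediate early genes have medians of -0.22 and -0.89, and single genes of most lists lie on both sides of 0.

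Of the retinoid X receptor genes 0 of 2 tested passed in the overexpression, and in the knockdown Rxra (12 and 13.4 against 27.8 and 29.1 CPM, 1.17) and Rxrb (0.75) were higher and Rxrg lower (adjusted p = 0.043). Coactivators and corepressors were higher for 7 of 11 and lower for 0 in the overexpression, with a median of 0.56, including Ncoa1 (0.68), Ncoa2 (0.62) and Ncor1 (0.62). In the knockdown 6 were higher and 3 lower, and Sp1, a general activator that Nr4a receptors can bind, fell by 1.98 (42.1 and 43.1 against 10.9 and 10.7 CPM). Among NR4A target genes 4 of 10 were higher and 1 lower in the overexpression. The glucose transporter Slc2a4 (1.48), the lipid phosphatase Lpin1 (0.75) and the cyclin Ccnd1 (0.58) rose, and Spp1 fell from 787 and 821 to 325 and 331 CPM (-1.30). In the knockdown 3 of 9 were higher and 5 lower, with Eno3 at 22.1 and 17.7 against 2.66 and 1.39 CPM (-3.30) and the muscle phosphoglycerate mutase Pgam2 at 14.9 and 11.8 against 53 and 40.3 CPM (1.81). Of other nuclear receptors 4 of 28 were higher and 1 lower in the overexpression (background 22.7%), with the retinoid receptor Rarb (1.48) and the clock-linked Rora (0.86) among the rises. In the knockdown 13 of 33 were higher and 8 lower (background 54.5%), with the orphan receptor Nr2f2 (1.31) and Ppard (0.89) higher and Rarg lower (-1.37).

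Of 10 TGF-beta response genes 1 was higher and 3 lower in the overexpression. The contractile genes Tagln (-0.69) and Acta2 (2116 and 2195 against 1563 and 1596 CPM, -0.45) and the matricellular Ccn2 (-0.41) fell, and the collagen gene Col1a1 rose (0.33). In the knockdown 5 of 9 were higher and 3 lower, with the matricellular Postn at 275 and 333 against 3624 and 3469 CPM (3.55) and Acta2 at 297 and 310 against 903 and 812 CPM, while Col1a1 fell (-0.87). Of 8 senescence genes 0 were higher and 3 lower in the overexpression, among them the cell cycle inhibitor Cdkn2a (28.5 and 42 against 12.3 and 12.6 CPM, -1.51). In the knockdown 3 were higher and 3 lower.

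The steepest rises beside Nr4a3 in the overexpression, where the average log2 CPM was 3 or more, were the relaxin-family peptide Rln3 (0.0691 and 0.0597 against 54.2 and 71.5 CPM), Tub, Ccdc3 (0.553 and 0.896 against 101 and 109 CPM) and the potassium channel Kcna5. The steepest falls were of albumin Alb (31.3 and 20.6 against 0.055 and 0 CPM), the prostaglandin dehydrogenase Hpgd (54.5 and 65.3 against 9.02 and 7.89 CPM), Igfbp4, the keratin Krt7 and Pkhd1l1. RefSeq windows were found for 16 of the 20 genes named here and next for the knockdown, Nr4a3 included, and that of Rln3 alone held the NR4A element. In the overexpression the element was present in 0.94% of the promoters of all genes tested. Its share was 2.53% (2 of 79) for genes called at least 4-fold higher and 5.56% (5 of 90) for those called at least 4-fold lower. Binding of Nr4a3 to these windows was not tested. In the knockdown Stmn4, a stathmin (0.595 and 0.648 against 483 and 450 CPM), the ligand Wnt16, the Wnt antagonist Sfrp4, Ptprz1 and the proteoglycan Aspn rose most. Ifit1bl1, Wdr66, the growth factor binding protein Igfbp5 (520 and 463 against 11.5 and 14.3 CPM), the potassium channel Kcnj5 and Ppl fell most.

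The single-cell libraries held 4816 barcodes for neonatal and 6796 for 24-month MGT cells, of which 3828 and 5773 were kept, with median depths of 13960 and 20771 UMIs. They shared 11 barcodes, 6 of them among kept cells, and doublets were not called. With 1 library per age there is no test, and the 95% intervals, exact Poisson for CPM and Clopper-Pearson for shares, cover counting error only. Nr4a3 was measured at 2.23 CPM (1.97 to 2.51; 274 UMIs) in the neonatal and 7.49 CPM (7.06 to 7.94; 1138 UMIs) in the 24-month library. Nr4a1 was measured at 16 CPM (15.3 to 16.7) and 33.3 (32.4 to 34.2), and Nr4a2 at 3.92 (3.57 to 4.28) and 6.39 (5.99 to 6.80). All 3 genes were higher in the 24-month library. In cells thinned to 10000 UMIs each, which left out 1805 neonatal and 2424 24-month cells, Nr4a1 was found in 13.3% (11.8 to 14.9) of 2023 and 21.6% (20.2 to 23.1) of 3349 cells, against 21.2% and 27.9% without thinning. Nr4a2 was found in 3.31% (2.58 to 4.19) and 5.26% (4.52 to 6.07), against 8.99% and 10.7%, and Nr4a3 in 2.37% (1.75 to 3.13) and 5.85% (5.08 to 6.70), against 4.31% and 9.32%. Of the other immediate early genes 12 of 16 were also higher in CPM in the 24-month library, for example Egr1 (251 against 332 CPM) and Junb (176 against 305 CPM). Myc, counted among them, was nearly equal (19.12 against 19.13 CPM). Btg2 (339 against 189 CPM), Atf3 (50.2 against 17.6 CPM), Jun (117 against 91.2 CPM) and Klf6 (246 against 208 CPM) were lower. The share of all genes that were higher in that library was not computed.

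Of 11 clusters 3 carried a cell-type name from their markers, and most others came almost wholly from 1 library, so they may be that library and not a cell type. Macrophage-like cells gave the low reference, at median depths of 28534 UMIs in the neonatal and 20240 in the 24-month library. Nr4a1 stood at 3.21 CPM (21 UMIs) in 206 neonatal cells and 2.64 CPM (38 UMIs) in 710 cells of the 24-month library. Nr4a3 was near the floor there, at 0.153 CPM (0.00387 to 0.851) from 1 UMI in neonatal cells. In the 24-month library it stood at 0.555 CPM (0.24 to 1.09), from 8 UMIs in 3 cells. In 946 neonatal cardiomyocyte-like cells, marked by Nppa, Myh6 and Ttn, Nr4a1 stood at 18.8 CPM (17.6 to 20.1), Nr4a2 at 2.54 (2.10 to 3.04) and Nr4a3 at 3.98 (3.43 to 4.60). That cluster held 67.5% of the neonatal Nr4a3 UMIs and 37.8% of all UMIs of the library. An unnamed neonatal cluster of 850 cells, led by Crabp1, had Nr4a3 at 1.19 CPM (0.926 to 1.49) and Nr4a2 at 5.27 CPM (4.71 to 5.89), and held 65.7% of the neonatal Nr4a2 UMIs and 48.8% of all UMIs. Endothelial-like cells (74) had Nr4a2 at 8.17 CPM (4.84 to 12.9) and Nr4a3 at 0.907 CPM (0.110 to 3.28).

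In the 24-month library 2 large unnamed clusters, both with all 7 fibroblast markers, held most counts. In the 1468 cells of the cluster led by Cxcl5, Cyp7b1 and Saa3, Nr4a1 stood at 48.2 CPM (46.3 to 50.1), Nr4a2 at 9.72 (8.90 to 10.6) and Nr4a3 at 12.4 (11.5 to 13.4). In the 1441 cells of the cluster led by Mfap5, Nr4a1 stood at 30.4 CPM (29.1 to 31.7), Nr4a2 at 5.28 (4.76 to 5.84) and Nr4a3 at 5.73 (5.19 to 6.31). The cluster led by Cxcl5 held 57.8% of the Nr4a3 UMIs and 34.9% of all UMIs of the library. Its median mitochondrial share was 1.41%, against 0.0694% in the cluster led by Mfap5. Summed immediate early CPM was 2427 and 2133 in the same order. A shallow unnamed cluster with Malat1 among its leading genes held 208 cells of this library, at a median depth of 4431.5 UMIs. Nr4a1 was higher there, at 77.4 CPM (62.2 to 95.1, from 90 UMIs), with Nr4a2 at 6.88 (2.97 to 13.6) and Nr4a3 at 9.46 (4.72 to 16.9). Its summed immediate early CPM was 4573. With a finer clustering, 66 neonatal cells separated as epicardial and mesothelial-like, with Nr4a3 at 19.2 CPM (14.3 to 25.2), 52 UMIs that came from 14 cells, and the cardiomyocyte-like level of Nr4a3 was then 2.87 CPM. At that clustering the cardiomyocyte-like cells held 134 of the 274 neonatal Nr4a3 UMIs, against 185 (the 67.5% above) at the coarser one.

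**Figure D5:**
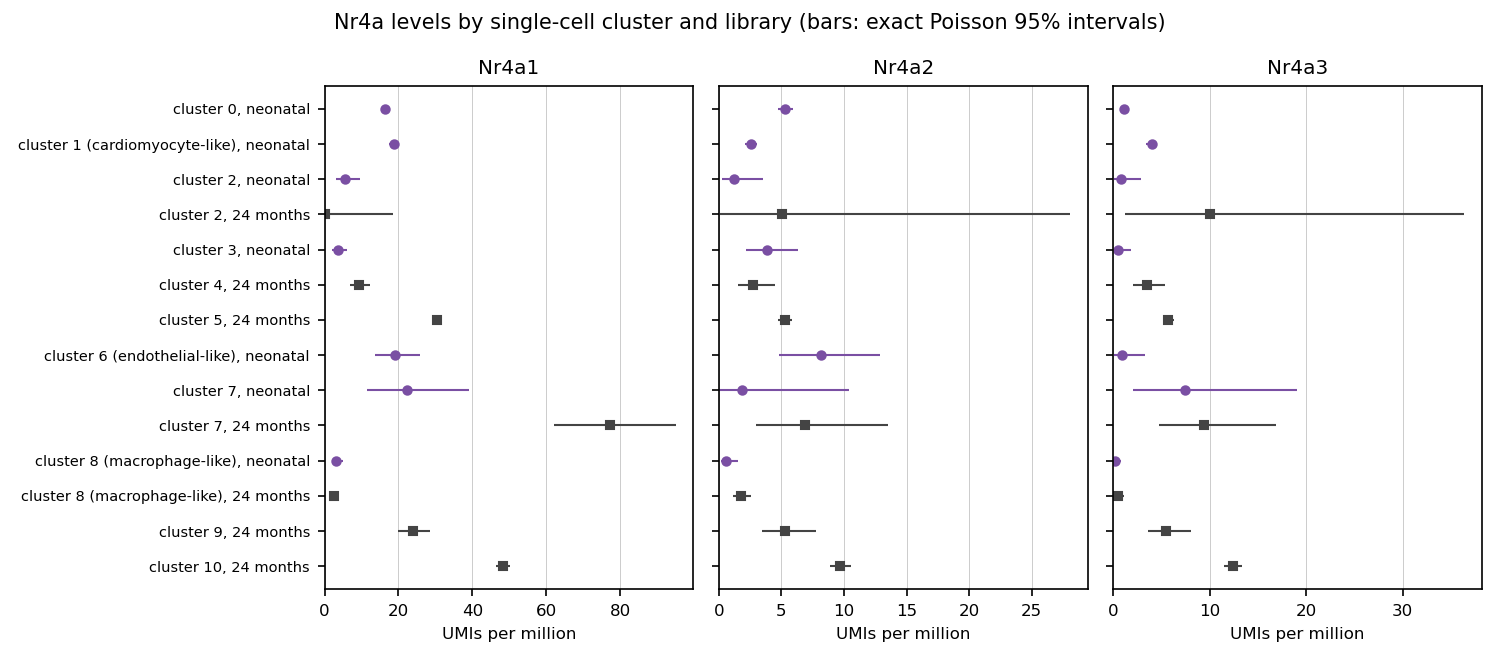
CPM of Nr4a1, Nr4a2 and Nr4a3 in each cluster and library of the single cells, with exact 95% Poisson intervals for counting error. Macrophage-like cells lie at 3.21 and 2.64 CPM for Nr4a1, and the 24-month cluster led by Cxcl5 lies above that led by Mfap5 for all 3 genes.

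Cells with an Nr4a3 UMI more often also had one of Nr4a1. In thinned 24-month cells, Nr4a1 was found in 41.8% (34.8 to 49.1) of the 196 cells with Nr4a3 and in 20.4% (19.0 to 21.8) of the 3153 without it. In neonatal cells it was found in 27.1% (15.3 to 41.8) of 48 cells with Nr4a3 and in 13% (11.5 to 14.5) of 1975 without. Nr4a2 was found in 12.2% (8.01 to 17.7) of the 24-month cells with Nr4a3 and in 4.82% (4.10 to 5.63) of those without. In neonatal cells Nr4a2 did not follow that order, with 2.08% (0.0527 to 11.1), or 1 cell, against 3.34% (2.59 to 4.23). None of the 3 was found in 82.5% of neonatal and 72.1% of 24-month cells, and all 3 in 1 and 18 cells. These shares pool the clusters of a library.

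Across the 20 libraries of the fibroblast age table and the LacZ and MGT table, the patterns of the 3 genes were compared with 10690 genes by Pearson correlation of log2(CPM + 1), centred on each table. The libraries fall into 10 groups and share tables, so the values are descriptions. Nr4a1 and Nr4a2 correlated at 0.876, Nr4a2 and Nr4a3 at 0.747 and Nr4a1 and Nr4a3 at 0.719. Over the 8 fibroblast libraries alone the values were 0.441, -0.829 and -0.369, with negative values for both pairs that include Nr4a3, and over the 12 LacZ and MGT libraries they were 0.90, 0.905 and 0.81. The genes most like Nr4a1 were Slc66a2 (0.89), Nr4a2, mt-Nd6 (0.87), Kif5c (0.865) and Crebzf (0.847). Those most like Nr4a2 were Slc66a2 (0.916), Crem (0.909), Spp1 (0.899), Crebzf (0.891) and Herc4 (0.89). Those most like Nr4a3 were Cd55 (0.933), Slc7a6 (0.927), Cyp26b1 (0.926), Srgn (0.924) and Jam2 (0.916). With rank correlation 2, 2 and 1 of these 5 remained among the top 5 for Nr4a1, Nr4a2 and Nr4a3, and over the fibroblast libraries alone 0 of each.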

How the data were processed

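RNA was measured in 28 bulk and 2 single-cell libraries. The authors deposited raw read counts per gene, an exon length per gene and, in 3 tables, FPKM values. The submitters' processing notes name build mm10, SAMtools, Subread 1.5.1 with featureCounts, and Trimmomatic 0.36; the aligner is not given in the sources used here. The labels name poly(A) RNA while their protocol describes rRNA depletion. Deposited FPKM equalled count over length over total within 0.011 for 100% of values. It was used only in that check and as an alternative level per kilobase. Deposited single-cell counts are UMIs per gene and barcode.

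Columns were matched to labels: 13 months to the 12-month samples, 15 months to the 18-month samples, GFP to OECtrl and D3 to MGT. Left out were 4 columns of knockdown data without a matching sample. For OENr4a3 and OECtrl, day 10 follows the labels, though the series' design text has day 7. The members and gene lists were chosen with earlier results of these data known.

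Each table was tested by itself over all genes in R 4.3.3 with edgeR 4.0.16 (filterByExpr, TMM, 1 coefficient per group, robust quasi-likelihood test, Benjamini-Hochberg adjustment over all genes tested, call at 0.05). Adjusted p-values in the report are from this test unless another fit is named, and 20 comparisons were made. Differences are fitted log2 fold changes with the SE of the fitted model, and 95% intervals use the t distribution with the test's degrees of freedom. The procedure was first tested on simulated data. Alternatives were RLE in place of TMM scaling in edgeR, DESeq2 1.42.0, no filter, a replicate block, a fit on the compared groups only and each library left out. List genes named are up to 4 with the smallest p, for single cells the largest counts; top genes are the 5 steepest called rises and falls with average log2 CPM of at least 3, groups that do not overlap and no predicted-gene symbol. List genes described along with their ages or treatments beyond this rule (Egr1, Atf3 and Jun, and Klf6 and Myc in single cells) were chosen after their values were seen. Same-numbered libraries deviated together with correlations from -0.189 to 0.201, with only 2 pairs, so the numbers were not taken to pair libraries. Depth is 14.28M to 43.45M counts per bulk library.

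Barcodes with 500 or more genes and no more than 20% of counts from mitochondrial genes entered the analysis and were clustered with scanpy 1.11.5 (2000 variable genes, 50 components, 15 neighbours, Leiden resolution 0.5). A name required 3 or more detected markers of a cell type, each found in 25% or more of the cluster's cells. Their level also had to exceed that in the remaining clusters by a log2 difference of 2 or more. A name was withheld where 75% or more of another type's markers were detected. The clusters led by Crabp1, Mfap5 and Cxcl5 had 7 of 7 fibroblast markers, but at log2 differences of only -0.6, 0.7 and 1.3. The result of 1 gene of the TGF-beta list is not reported here.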

Additional observations from a re-analysis of the deposited data

Results flagged for a closer look

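The response of Nr4a1 to MGT differed between ages by the test of the difference itself. The log2 difference between MGT and LacZ was 1.30 in neonatal, -0.14 in 3-month and 0.03 in 18-month cells. The 3-month response minus the neonatal one was -1.44 ± 0.23 (edgeR quasi-likelihood interaction, adjusted p = 0.00433), and the 18-month response minus the neonatal one was -1.27 ± 0.23 (adjusted p = 0.0131). In LacZ cells Nr4a1 stood at 46.5 and 50.3 CPM in neonatal, 273 and 310 CPM in 3-month and 157 and 191 CPM in 18-month libraries. With MGT the values were 138 and 99.9, 244 and 285, and 162 and 194 CPM. The cause was not tested.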

How the results depend on the processing

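Of 573 alternative values for the 60 member differences, 505 kept their direction and their side of the threshold, 37 lost the call, 13 gained it and 18 took the opposite sign, of which 0 had an adjusted p under 0.05. Nr4a3 kept its calls for MGT against LacZ, and all 3 members kept theirs in the knockdown, under every alternative run. Of 78 alternative levels per kilobase 71 stayed within 1 SD. They were scaled by the library total without TMM or taken from the deposited FPKM, which repeats that calculation. Close values were therefore fixed in advance, and the count does not measure how stable the levels are. The replicate block, with 2 pairs of uncertain pairing, called 3887 genes in the overexpression (3410 without it) and 10172 in the knockdown (9841); the crossed pairing, chosen after seeing the data, called 4452 in the overexpression. Depth limits Nr4a3 most in neonatal fibroblasts (17 and 28 reads) and in MGT+shNr4a3 cells (18 and 32), and Nr4a2 in OECtrl cells (21 each). The causes of the changes below were not tested.

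With DESeq2, calls were lost for Nr4a2 in CF 3 months against neonatal (-0.692, adjusted p = 0.0692), Nr4a3 in CF 3 months against neonatal (0.915, adjusted p = 0.069), Nr4a2 in CF 12 months against neonatal (-0.684, adjusted p = 0.0753), Nr4a3 in CF 12 against 3 months (0.939, adjusted p = 0.0503), Nr4a1 in OENr4a3 against OECtrl (-0.553, adjusted p = 0.0728). With DESeq2, calls were gained for Nr4a2 in MGT against LacZ, 3 months (0.828, adjusted p = 0.0155), Nr4a2 in MGT 18 against 3 months (-0.854, adjusted p = 0.0122). With DESeq2, the number of genes called was 3091 for CF 12 against 3 months (reported 4691), 1883 for CF 24 against 3 months (reported 3017), 1973 for CF 24 against 12 months (reported 3110). With the replicate number as a block, calls were lost for Nr4a1 in CF 3 months against neonatal (-0.41, adjusted p = 0.0723), Nr4a1 in CF 12 months against neonatal (-0.385, adjusted p = 0.0876). With the replicate number as a block, the sign turned for Nr4a3 in the MGT effect, 3 months minus neonatal (-0.003, adjusted p = 0.998). With no filter on low counts, calls were gained for Nr4a1 in CF 24 against 3 months (0.28, adjusted p = 0.00188), Nr4a1 in CF 24 against 12 months (0.266, adjusted p = 0.00468), Nr4a2 in MGT against LacZ, neonatal (0.722, adjusted p = 0.0118), Nr4a2 in MGT against LacZ, 3 months (0.825, adjusted p = 1.92e-06), Nr4a2 in MGT 18 against 3 months (-0.863, adjusted p = 8.19e-07). With no filter on low counts, the sign turned for Nr4a2 in CF 12 against 3 months (-0.002, adjusted p = 1). With only the compared groups in the fit, calls were lost for Nr4a1 in MGT against LacZ, neonatal (1.307, adjusted p = 0.07), Nr4a1 in the MGT effect, 18 months minus neonatal (-1.278, adjusted p = 0.0691), Nr4a1 in MGT 3 months against neonatal (1.155, adjusted p = 0.0804). With only the compared groups in the fit, calls were gained for Nr4a2 in MGT against LacZ, 3 months (0.83, adjusted p = 0.00715), Nr4a2 in MGT 18 against 3 months (-0.845, adjusted p = 9.65e-07). With only the compared groups in the fit, the number of genes called was 1977 for MGT against LacZ, neonatal (reported 1229), 1798 for MGT against LacZ, 3 months (reported 2846), 882 for the MGT effect, 18 months minus neonatal (reported 461), 2116 for LacZ 18 against 3 months (reported 3769).

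With 1 library left out at a time, Nr4a1 ranged from -0.508 to -0.367 for CF 3 months against neonatal, from -0.53 to -0.255 for CF 12 months against neonatal, from -0.38 to 0.064 for CF 24 months against neonatal, from -0.121 to 0.155 for CF 12 against 3 months, from 0.054 to 0.474 for CF 24 against 3 months, from 0.023 to 0.446 for CF 24 against 12 months, from -0.117 to 0.192 for MGT against LacZ, 18 months, from -1.658 to -1.184 for the MGT effect, 3 months minus neonatal, from -1.496 to -1.014 for the MGT effect, 18 months minus neonatal, from -0.886 to -0.592 for LacZ 18 against 3 months, from 0.351 to 0.835 for MGT 18 months against neonatal, from -0.715 to -0.432 for MGT 18 against 3 months, from -0.654 to -0.444 for OENr4a3 against OECtrl. With 1 library left out at a time, Nr4a2 ranged from -0.803 to -0.558 for CF 3 months against neonatal, from -0.788 to -0.57 for CF 12 months against neonatal, from -0.109 to 0.136 for CF 12 against 3 months, from 0.13 to 1.128 for MGT against LacZ, neonatal, from -0.318 to 0.694 for the MGT effect, 3 months minus neonatal, from -0.763 to 0.257 for the MGT effect, 18 months minus neonatal, from 0.786 to 1.808 for MGT 18 months against neonatal. With 1 library left out at a time, Nr4a3 ranged from 0.474 to 1.46 for CF 3 months against neonatal, from 0.728 to 1.116 for CF 12 against 3 months, from -0.14 to 0.173 for the MGT effect, 3 months minus neonatal, from -0.868 to -0.343 for MGT 18 against 3 months. The number of genes called then ranged from 1872 (without CF 12-month replicate 2) to 2597 (without CF 12-month replicate 1) for CF 24 against 12 months (reported 3110), from 688 (without MGT neonatal replicate 2) to 1037 (without MGT neonatal replicate 1) for MGT against LacZ, neonatal (reported 1229), from 1732 (without MGT 3-month replicate 1) to 4476 (without LacZ 3-month replicate 1) for MGT against LacZ, 3 months (reported 2846), from 1452 (without MGT 18-month replicate 2) to 2136 (without MGT 18-month replicate 1) for MGT against LacZ, 18 months (reported 2713), from 363 (without MGT 3-month replicate 1) to 1760 (without LacZ 3-month replicate 1) for the MGT effect, 3 months minus neonatal (reported 605), from 241 (without MGT 18-month replicate 2) to 372 (without MGT neonatal replicate 1) for the MGT effect, 18 months minus neonatal (reported 461), from 159 (without LacZ 18-month replicate 1) to 1012 (without LacZ 3-month replicate 2) for the MGT effect, 18 minus 3 months (reported 383), from 2166 (without LacZ 18-month replicate 1) to 4632 (without LacZ 3-month replicate 1) for LacZ 18 against 3 months (reported 3769), from 2758 (without MGT 3-month replicate 2) to 3273 (without MGT neonatal replicate 1) for MGT 3 months against neonatal (reported 4264), from 1367 (without MGT 3-month replicate 2) to 2262 (without MGT 18-month replicate 1) for MGT 18 against 3 months (reported 2850), from 1197 (without OENr4a3 replicate 2) to 7704 (without OECtrl replicate 1) for OENr4a3 against OECtrl (reported 3410). Leaving out 1 library turned the sign, without an adjusted p under 0.05, of Nr4a1 in CF 24 months against neonatal (0.064), Nr4a1 in CF 12 against 3 months (-0.011 and -0.121), Nr4a2 in CF 12 against 3 months (-0.109 and -0.001), Nr4a1 in MGT against LacZ, 18 months (-0.101 and -0.117), Nr4a2 in the MGT effect, 3 months minus neonatal (-0.303 and -0.051 and -0.318 and -0.118), Nr4a3 in the MGT effect, 3 months minus neonatal (-0.027 and -0.124 and -0.14 and -0.128), Nr4a2 in the MGT effect, 18 months minus neonatal (0.257).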
